A study of Mus musculus with 18 samples.

Results

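The mitochondrial ribosomal proteins were followed here as 78 genes of the mouse, out of 56883 gene symbols in the combined count table. They are every symbol that starts with Mrpl or Mrps and a digit, without regard to measured values, and 1 symbol with -ps, Mrpl23-ps1, was left out. By symbol 49 were Mrpl and 29 were Mrps. By place in the ribosome 51 encode large-subunit and 26 small-subunit proteins, because Mrps18a and Mrps30 sit in the large subunit, and Mrps36 is now assigned to the 2-oxoglutarate dehydrogenase complex. By descent 45 of them were counted with a bacterial counterpart and 32 as particular to mitochondria. Those 32 include Mrps18a and Mrps18b, although both are relatives of the bacterial S18 protein.

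The mitochondrial ribosome translates the few messenger RNAs that mitochondrial DNA encodes, all of them core subunits of the respiratory chain and ATP synthase. Its proteins are encoded in the nucleus, made on cytosolic ribosomes and imported, and its ribosomal RNAs come from mitochondrial DNA. It carries less RNA and more protein than its bacterial relatives, and defects in its proteins cause respiratory chain disease in humans that often affects brain, heart and muscle.

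RNA was sequenced from 3 cell fractions of mouse frontal cortex after a course of clozapine, risperidone or vehicle, to compare the response to these antipsychotic drugs between cell types. Frontal cortices of 5 animals made 1 pool, each treatment had 2 pools numbered as batch 1 and batch 2, and immunopanning divided each of the 6 pools into microglia, astrocyte and neuron fractions. The 18 libraries therefore form 9 groups of n = 2. In the tests of drugs and batches a p-value measures the spread between pools. In the fraction tests, which pair the fractions within pools, it measures how the within-pool differences vary. All groups carried the B6;D2-Tg(S100B-EGFP)1Wjt/J genotype, in which the S100B promoter drives EGFP. The clozapine dose was 10 mg/kg and the risperidone dose 1 mg/kg, injected into the peritoneum once a day for 14 days, and vehicle was injected in the same way. Injections ran over postnatal days 60 to 74 and all animals were killed on day 75. The submitters name both sexes in the design and adult males in the housing note. Plates coated with antibodies took out endothelial cells, captured CD45-positive microglia, took out cells of the oligodendrocyte lineage, and captured Thy1-positive neurons and HepaCAM-positive astrocytes from what remained.

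Counts assigned to genes ranged from 4.71 to 13.39 M per library, with a median of 7.44 M, and levels are given as counts per M of that total (CPM). The 37 mitochondrially encoded features were at 0 in all libraries, so the ribosomal RNAs and messages that this ribosome uses were not analysed here. Each fraction carried the markers of its label. Summed CPM of 10 microglia markers was 3613 to 7164 in microglia libraries, 287 to 1081 in astrocyte libraries and 42.0 to 661 in neuron libraries. Summed astrocyte markers were 1973 to 4417, 10822 to 15774 and 3338 to 6270 in the same order of fractions, and neuron markers 1235 to 4775, 2295 to 4719 and 5633 to 9763. Oligodendrocyte markers stayed high in the astrocyte fraction (9691 to 36827) and the neuron fraction (5361 to 28139), against 654 to 2948 in microglia. Erythrocyte markers reached 1464 to 15291 in microglia, against at most 571 in the other fractions, and genes of the dissociation response summed to 4182 to 10522 in microglia, 1038 to 3695 in astrocytes and 1116 to 1882 in neurons. Of all markers only Lum, a fibroblast gene, was at 0, in 1 library. In bulk fractions, fewer cells of a type and less RNA per cell cannot be told apart.

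All 78 genes were detected in every library, with at least 10 counts, and all passed the filter on low counts in every fit. Mean level per exon length over the 18 libraries had a median of 6.69 CPM per kb and ran from 1.45 to 35.8, and the 90th percentile was 4.99-fold above the 10th. The same median was 75.9 CPM per kb for 79 cytosolic ribosomal proteins and 28.5 for 74 nuclear subunits of the respiratory chain. At the top stood Mrpl52, a protein particular to mitochondria, at 35.8 CPM per kb and Mrpl12 at 35. Mrpl12 belongs to the stalk that recruits translation factors, and in mammals its protein is also reported to bind the mitochondrial RNA polymerase. Mrps21, a small-subunit protein with a bacterial counterpart, followed at 20.2 CPM per kb. The lowest levels were those of Mrps30 at 1.45, Mrpl13 at 1.51 and Mrpl23 at 1.68 CPM per kb. Among the fractions the median of the 78 was 5.96 CPM per kb in microglia, 7.29 in astrocytes and 6.65 in neurons.

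**Figure D1:**
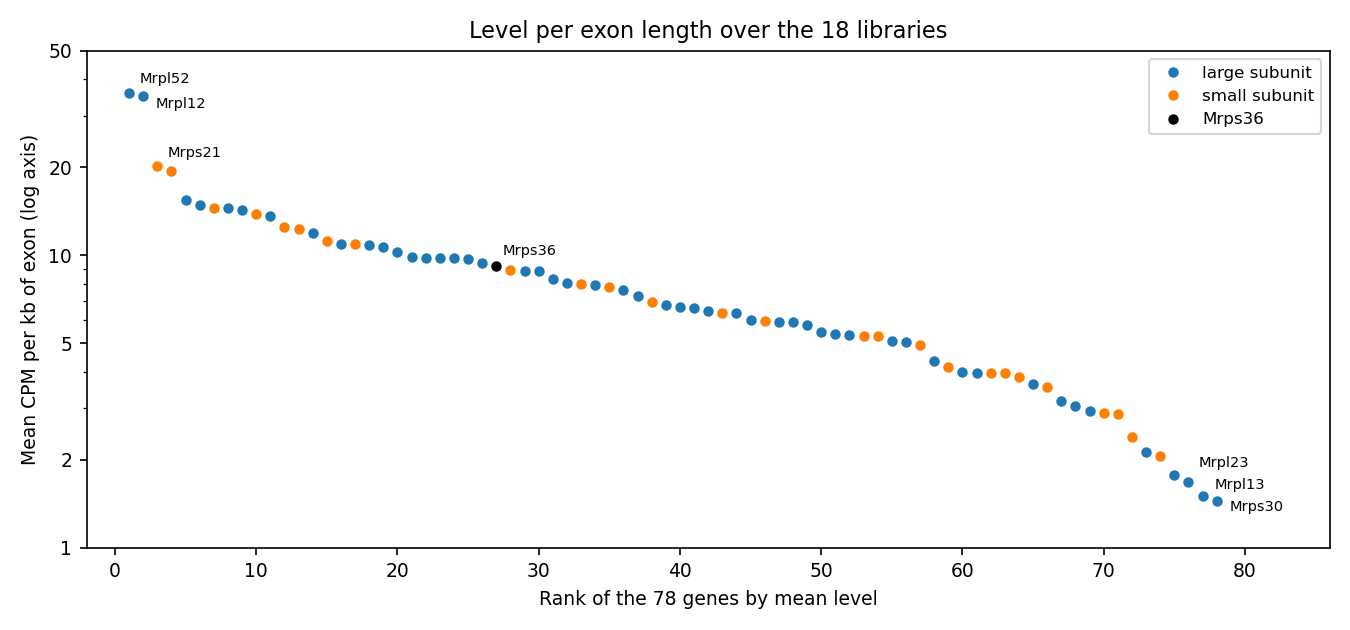
Mean level of each of the 78 genes over the 18 libraries in CPM per kb of exon (log axis) against its rank, coloured by ribosomal subunit. Mrpl52 and Mrpl12 stand above the rest at 35.8 and 35, and Mrps30, Mrpl13 and Mrpl23 lie lowest at 1.45 to 1.68.

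The 78 genes varied only loosely together. The median Pearson correlation between pairs of them was 0.18 over the 18 libraries, and 0.09 once each fraction was centred on its mean. These points share libraries, depth and fraction, and the values are descriptions. The summed large subunit stayed at 1.95 to 2.24 times the summed small subunit in each library.

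Read together, mitochondrial ribosomal protein RNA took the largest share of the library in astrocytes and the smallest in microglia. Summed CPM was 1489 and 1419 in clozapine, 1408 and 1276 in risperidone, and 1298 and 1326 in vehicle microglia, in batches 1 and 2. Astrocyte libraries summed to 1760 and 1854 with clozapine, 1777 and 1703 with risperidone, and 1652 and 1602 with vehicle. Neuron libraries summed to 1488 and 1745 with clozapine, 1462 and 1417 with risperidone, and 1426 and 1531 with vehicle. Every astrocyte library lay above every microglia library, while the neuron libraries overlapped both. Within pools, the microglia sum was below the astrocyte sum in 6 of 6, by a mean log2 ratio of -0.33 ± 0.07 (SD, n = 6 pools), and below the neuron sum in 5 of 6 (-0.14 ± 0.11). The astrocyte sum was above the neuron sum in 6 of 6 pools (0.19 ± 0.09).

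**Figure D2:**
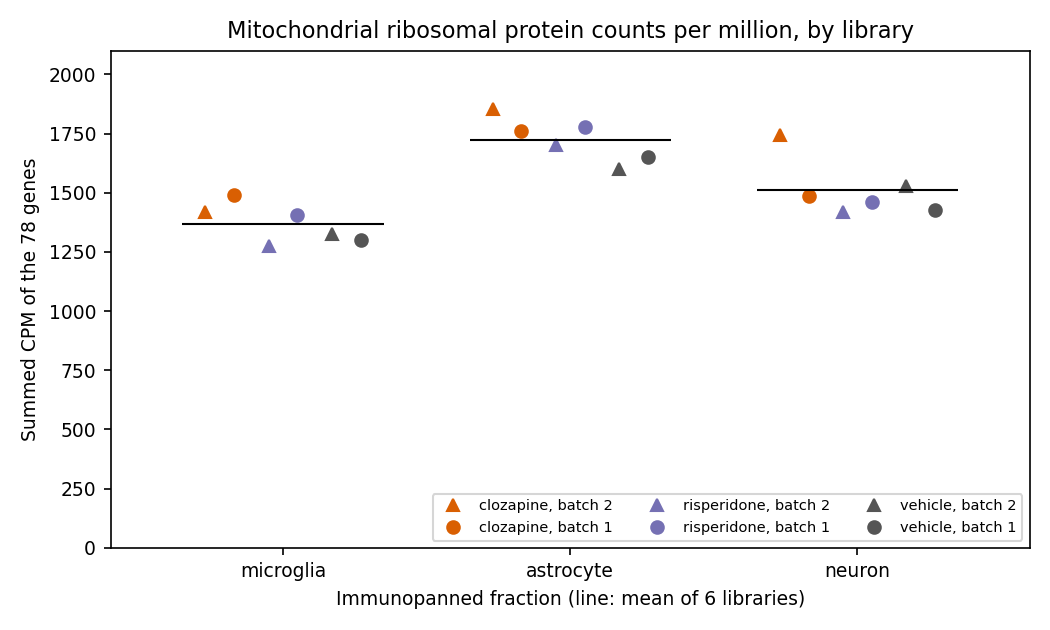
Summed CPM of the 78 genes in each of the 18 libraries by fraction, with colour for treatment, shape for batch and a line at the mean of 6. All astrocyte libraries (1602 to 1854) lie above all microglia libraries (1276 to 1489), and 1 clozapine neuron library stands apart at 1745.

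These shares are relative to the whole library. The tests below used edgeR's TMM scaling instead, which aims to set the bulk of genes level between libraries. The choice moved the median of all genes by -0.02 between microglia and astrocytes, by 0.37 between microglia and neurons and by 0.38 between astrocytes and neurons (log2, total-count minus TMM scaling). A direction against the neuron fraction can therefore depend on the scaling. Under TMM the median of all genes still lay above 0 in both comparisons with neurons. A difference of 0 there was thus not level with the median gene. Counts and medians over the 78 are given under both, with the value relative to the median gene, and a value named with no scaling is from TMM.

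Against the astrocyte fraction, 18 of the 78 genes were lower in microglia and 1, Mrps18b, was higher. The edgeR quasi-likelihood test paired the fractions within pools and called genes at a Benjamini-Hochberg adjusted p under 0.05. Of all 28667 genes tested 19.4% were called, 9.54% as lower and 9.82% as higher in microglia. The fitted log2 difference had a median of -0.36 over the 78, against 0.04 over all genes, and 63 of the 78 lay below 0. Relative to the median gene, the 78 stood at -0.40 under TMM and -0.36 under total-count scaling. All 18 lower calls were made under both scalings, where total-count scaling called 24 as lower and 1 as higher. Of all genes total-count scaling called 21.5%, 11.7% as lower and 9.8% as higher. In plain CPM 23 of the 78 were lower in microglia in each of the 6 pools, a pattern shown by 12% of all genes, and 1 was higher in each, against 11.5% of all genes.

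Called genes in the fraction comparisons are named by smallest p, which favours groups that do not overlap. A lack of overlap in them adds no support, and its share over all genes is not given here. Mrpl40 had the smallest p of the 78. It encodes a mitochondria-specific large-subunit protein, and its human counterpart lies in the interval deleted in DiGeorge syndrome. Its lowest, median and highest CPM were 10.9, 16.1 and 21.2 in microglia and 27.7, 39.1 and 47.8 in astrocytes. The groups did not overlap, and all 6 pools were lower in microglia. The fitted log2 difference was -1.33 (SE 0.22, edgeR Benjamini-Hochberg adjusted p = 0.000138). Its gene (ENSMUSG00000022706.17) spans chr16:18690768-18695612 on the minus strand of GRCm39 and shares no exon bases with another gene.

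Mrps12, which lines the decoding centre of the small subunit and has a bacterial counterpart, ranged over 9.84, 10.5 and 19.8 CPM (lowest, median, highest) in microglia and 23.1, 25.9 and 30.7 CPM in astrocytes. The groups did not overlap, although the batch 2 clozapine microglia library, at 19.8 CPM, stood well above the other 5. Mrps12 differed by -1.18 on the log2 scale (SE 0.22, adjusted p = 0.000372, edgeR with Benjamini-Hochberg adjustment).

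Mrpl42, a mitochondria-specific protein of the large subunit, had 10.4, 20.8 and 30.9 CPM in microglia and 32, 50.2 and 63.3 CPM in astrocytes, again without overlap. It differed by -1.29 (SE 0.24, edgeR Benjamini-Hochberg adjusted p = 0.000436). Mrpl51, another large-subunit protein particular to mitochondria, had 17.7, 23.2 and 27.3 CPM in microglia against 36, 48.4 and 64.0 CPM in astrocytes. Its difference was -1.14 (edgeR Benjamini-Hochberg adjusted p = 0.00152). Mrpl18 comes from the bacterial family that binds 5S ribosomal RNA. It had 6.00, 9.20 and 10.7 CPM in microglia and 11.5, 19.1 and 24.8 CPM in astrocytes, with a difference of -1.18 and an adjusted p of 0.00161 in edgeR's Benjamini-Hochberg procedure. Mrpl18 shares 10.1% of its exon bases with Tcp1 on the other strand, and Tcp1 itself differed by 0.04.

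Mrpl30, a large-subunit protein with a bacterial counterpart, had 15.7, 18.7 and 26.3 CPM in microglia and 23.4, 41.2 and 44.5 CPM in astrocytes. The highest microglia library overlapped the lowest astrocyte library, yet all 6 pools were lower in microglia (-0.95, SE 0.22, edgeR Benjamini-Hochberg adjusted p = 0.00342). Mrps21 had 6.61, 9.25 and 15.0 CPM in microglia and 11.3, 20.0 and 22.8 CPM in astrocytes, with some overlap between groups, and all 6 pools were lower in microglia. Its difference was -0.93 (SE 0.23, edgeR Benjamini-Hochberg adjusted p = 0.00513). Mrps33 (-0.89), Mrps14 (-0.70) and Mrpl13 (-0.68) completed the 10 of smallest p, and Mrps33 was lower in 5 of 6 pools. The other 8 genes called lower were Mrpl10, Mrpl20, Mrpl27, Mrpl28, Mrpl43, Mrpl58, Mrps25 and Mrps34, with differences of -0.54 to -0.96. Mrpl58, a peptidyl-tRNA hydrolase that rescues stalled ribosomes, was among them at -0.67 (edgeR Benjamini-Hochberg adjusted p = 0.0147). Of these 8, Mrps34 shares 77.8% of its exon bases with other genes, the most with Nme3 on the same strand. Mrps25 shares 69.8% with Nr2c2 and Mrpl43 33.4% with Twnk, both on the opposite strand. The part of these neighbours in the result was not tested.

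The promoters of 5 of the genes that were lower in microglia against either fraction are shown for the motifs they do and do not hold. The sequences are RefSeq's for GRCm38.p6, each is the 250 bases before the gene's start on the gene's own strand, and capitals mark a motif match. Mrpl40 (chr16:18876638-18876887, minus strand) held none of the 4 motifs searched. Mrpl30 (chr1:37890227-37890476, plus strand) held an NRF1 motif 83 to 74 bases before the start, and Mrps21 (chr3:95871515-95871764, minus strand) had the same motif 91 to 82 bases before it. Mrps26 (chr2:130563507-130563756, plus strand) held an ETS core 14 to 8 bases before the start, and Mrpl51 (chr6:125191950-125192199, plus strand) had one 90 to 84 bases before it. The NRF1 matches and the Mrps26 match read along the opposite strand.
Mrpl40: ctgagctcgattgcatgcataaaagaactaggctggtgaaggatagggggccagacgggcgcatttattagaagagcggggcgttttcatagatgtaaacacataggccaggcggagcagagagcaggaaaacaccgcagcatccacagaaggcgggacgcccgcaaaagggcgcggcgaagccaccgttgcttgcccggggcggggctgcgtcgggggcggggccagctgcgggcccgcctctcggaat
Mrpl30: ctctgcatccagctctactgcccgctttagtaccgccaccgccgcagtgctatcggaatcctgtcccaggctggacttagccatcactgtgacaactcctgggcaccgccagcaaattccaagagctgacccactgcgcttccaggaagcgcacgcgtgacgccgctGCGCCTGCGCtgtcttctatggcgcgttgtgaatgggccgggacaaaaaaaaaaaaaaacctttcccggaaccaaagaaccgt
Mrps21: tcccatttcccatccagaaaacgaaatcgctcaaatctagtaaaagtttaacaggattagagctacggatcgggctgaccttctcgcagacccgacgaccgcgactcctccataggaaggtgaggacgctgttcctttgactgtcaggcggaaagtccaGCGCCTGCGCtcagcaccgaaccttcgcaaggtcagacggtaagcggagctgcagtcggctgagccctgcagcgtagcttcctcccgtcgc
Mrps26: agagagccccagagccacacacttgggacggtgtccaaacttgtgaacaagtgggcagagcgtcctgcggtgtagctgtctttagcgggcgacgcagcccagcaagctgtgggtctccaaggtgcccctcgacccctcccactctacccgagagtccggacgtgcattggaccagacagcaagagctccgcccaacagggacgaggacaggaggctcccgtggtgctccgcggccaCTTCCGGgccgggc
Mrpl51: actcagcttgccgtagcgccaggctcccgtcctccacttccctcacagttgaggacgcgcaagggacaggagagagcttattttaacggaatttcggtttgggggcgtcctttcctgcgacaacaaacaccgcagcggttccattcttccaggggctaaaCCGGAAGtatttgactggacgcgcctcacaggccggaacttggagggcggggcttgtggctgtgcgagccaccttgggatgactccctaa

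NRF1 and the ETS factor GABP are known regulators of nuclear genes for mitochondrial proteins. RefSeq's table held 75 promoters for 69 of the 78 genes, and none for Mrpl4, Mrpl13, Mrpl15, Mrpl19, Mrpl38, Mrpl54, Mrps28, Mrps34 and Mrps35. Both strands were searched. The letters of the YY1 motif can overlap the end of the ETS core, and no promoter of these genes held both in the 250 bases before the start. The NRF1 motif, GCGCA and GCGC with 1 base of any kind between them, lay in 10 of the 75 promoters (13.3%), against 3.74% of all 32851 promoters. The ETS core CCGGAAG lay in 18 (24%), against 6.91%. The YY1 motif AAGATGGCG lay in 2 (2.67%), against 0.606%, and the TATA box TATAAA in 5 (6.67%), against 12.4%. With the 50 bases after the start included, the counts of the 75 were 13 for NRF1 (17.3%, against 4.6% of all), 26 for ETS (34.7%, against 8.86%), 8 for YY1 (10.7%, against 1.4%) and 5 for TATA (6.67%, against 13.6%). Median GC content was 58.4% in the 75 promoters and 52.4% in all. In the 250 bases, NRF1 or ETS letters were found for 27 of the genes and both for 1, Mrpl17. A match is a description of the letters in its window and carries no test.

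Mrps18b was the exception in direction. This gene encodes a mammalian relative of the bacterial S18 protein, beside Mrps18a and Mrps18c. Its lowest, median and highest CPM were 17.1, 20.0 and 24.4 in microglia and 4.15, 12.3 and 17.0 in astrocytes, so the groups did not overlap, and all 6 pools were higher in microglia. The log2 difference was 1.07 (SE 0.25, edgeR Benjamini-Hochberg adjusted p = 0.00311). Log2 CPM differences were 0.83, 2.48 and 1.97 in the batch 1 pools (vehicle, clozapine, risperidone). In the batch 2 pools they were smaller, at 0.35, 0.65 and 0.04. Mrps18b shares 30.5% of its exon bases with Gm16279 on the opposite strand, and counting did not use strand. Gm16279 differed by -0.37 and was not called (edgeR Benjamini-Hochberg adjusted p = 0.248). The relatives behaved otherwise, with 0.00 for the large-subunit Mrps18a (30.4 to 44.1 CPM in microglia, 33.4 to 42.1 CPM in astrocytes) and -0.30 for Mrps18c, neither called.

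**Figure D3:**
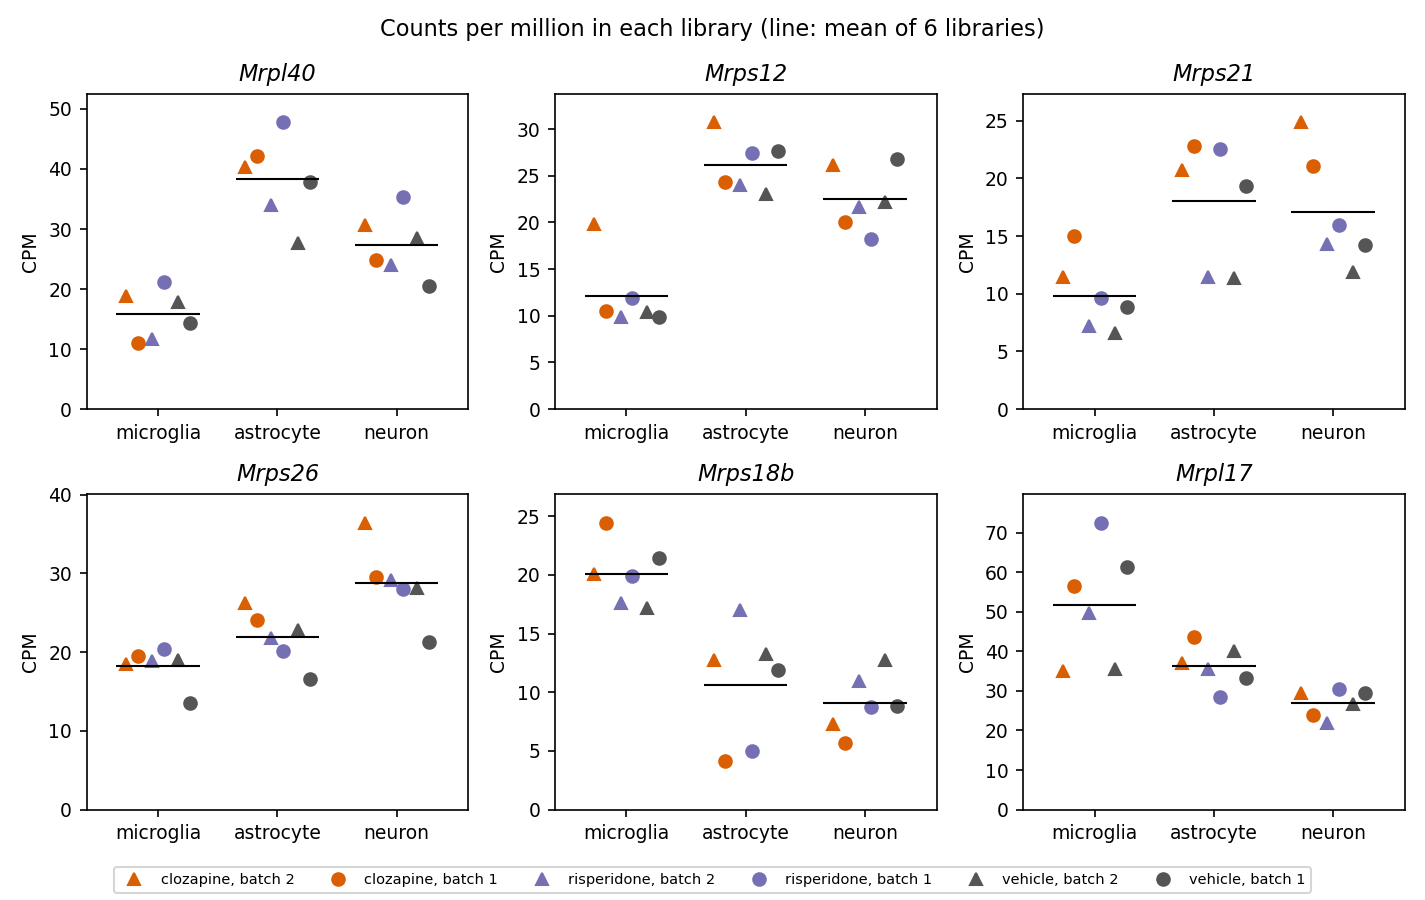
CPM of 6 genes in each of the 18 libraries, with colour for treatment, shape for batch and a line at the mean of 6. Mrpl40, Mrps12, Mrps21 and Mrps26 have their lowest means in microglia, and Mrps18b and Mrpl17 their highest.

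The genes called lower came from every class. They were 12 of 51 in the large subunit, 6 of 26 in the small subunit, 10 of 45 with a bacterial counterpart and 8 of 32 particular to mitochondria. Spread among the 78 was wide, with an SD of the fitted differences of 0.44 and a range of -1.33 to 1.07. Mrps36, of the 2-oxoglutarate dehydrogenase complex, had 5.85, 7.25 and 9.34 CPM in microglia and 5.51, 12.9 and 22.9 CPM in astrocytes, and its difference of -0.87 missed the threshold (edgeR Benjamini-Hochberg adjusted p = 0.065). Mrps30 (-0.11) and Mrpl12 (-0.34) were not called either. Microglia, erythrocyte and dissociation-response markers were higher in microglia (10 of 10, 5 of 5 and 12 of 15 called), and oligodendrocyte and astrocyte markers were lower (10 of 10 each). Their part in the result was not tested.

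Against the neuron fraction, 35 of the 78 genes were lower in microglia and 2 were higher under TMM scaling, by the same paired edgeR test. Among all genes 52% were called, 21.6% as lower and 30.3% as higher. The fitted median was -0.45 over the 78 and 0.35 over all genes, and 66 of the 78 lay below 0. Total-count scaling called 17 as lower and 7 as higher, and those 17 were also called lower under TMM. Of all genes total-count scaling called 52.8%, 14.4% as lower and 38.4% as higher. Relative to the median gene the 78 stood at -0.80 under TMM and -0.79 under total-count scaling, and 76 of 78 lay below that median under both. In plain CPM 14 were lower in each of the 6 pools, near the 13.2% of all genes, and 7 were higher in each, against 39.8% of all genes.

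Mrps26 had the smallest p against neurons. It is a small-subunit protein particular to mitochondria, and its lowest, median and highest CPM were 13.6, 18.9 and 20.4 in microglia and 21.2, 28.7 and 36.4 in neurons, with no overlap. Its log2 difference was -1.04 (SE 0.17, edgeR Benjamini-Hochberg adjusted p = 5.78e-05), and -0.63 under total-count scaling. Mrps12 reached 18.3, 21.9 and 26.8 CPM in neurons, against which the microglia values above give -1.31, or -0.91 under total-count scaling. Its microglia and neuron libraries overlapped through the same batch 2 clozapine microglia library.

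Mrpl51 had the most negative difference of the 78 at -1.38 (-0.97 under total-count scaling), with 38.7, 44.6 and 54.9 CPM in neurons and no overlap with microglia. Mrpl30 had 29.2, 35.6 and 46.5 CPM in neurons, again without overlap, and differed by -1.29 (-0.89). Mrpl40 had 20.5, 26.6 and 35.3 CPM in neurons and differed by -1.18 (-0.78). Mrps21 (-1.21, or -0.80 under total-count scaling), Mrpl42 (-1.27, or -0.87) and Mrpl48 (-1.22, or -0.81) were similar. Mrpl10, which with Mrpl12 forms the stalk, differed by -0.94 (-0.54). Mrps25, a small-subunit protein particular to mitochondria, had 30.7, 37.8 and 50.6 CPM in microglia and 59.5, 76.1 and 81.2 CPM in neurons and differed by -1.27 (-0.88). It shares 69.8% of its exon bases with Nr2c2 on the opposite strand, which itself was lower by a like amount (-1.46, edgeR Benjamini-Hochberg adjusted p = 7.61e-05), so reads of the pair cannot be told apart. Mrpl10 shares 14.1% with Gm11574, which was not called (0.10).

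Among genes picked for their roles, Mrps36 was lower against neurons at -1.14 (edgeR Benjamini-Hochberg adjusted p = 0.00572), and at -0.77 under total-count scaling (adjusted p = 0.0392). Mrpl58 was lower at -0.89 (edgeR Benjamini-Hochberg adjusted p = 0.000712), and at -0.505 under total-count scaling (adjusted p = 0.00333). Mrpl12 was lower under TMM scaling at -0.65 (edgeR Benjamini-Hochberg adjusted p = 0.0313), and missed the threshold under total-count scaling at -0.22 (adjusted p = 0.255). Mrpl12 had 38.0, 46.6 and 57.7 CPM in microglia and 39.3, 56.7 and 75.9 CPM in neurons, which overlap. Mrps18a (-0.30 under TMM, 0.11 under total-count scaling) and Mrps30 (-0.04 and 0.35) took their sign from the scaling and were called under neither.

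Both genes called higher against neurons were higher in all 6 pools. Mrps18b had 5.69, 8.81 and 12.7 CPM in neurons, below every microglia library, and differed by 0.83 (SE 0.24, edgeR Benjamini-Hochberg adjusted p = 0.00874). Mrpl17, a large-subunit protein near the exit of the peptide tunnel, had 34.9, 53.1 and 72.5 CPM in microglia and 21.9, 28 and 30.4 CPM in neurons, without overlap, and differed by 0.52 (SE 0.17, adjusted p = 0.0146 in edgeR's Benjamini-Hochberg procedure). Without the pool as a block both missed the threshold, with adjusted p of 0.0812 for Mrps18b and 0.143 for Mrpl17 (edgeR, Benjamini-Hochberg). Total-count scaling gave larger differences, 1.24 for Mrps18b and 0.93 for Mrpl17.

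The 35 genes called lower were 23 of 51 in the large subunit, 11 of 26 in the small subunit and Mrps36. Genes with a bacterial counterpart gave 17 of 45, and those particular to mitochondria 17 of 32. Lower calls against both other fractions were shared by 17 genes, and by 11 under both scalings, namely Mrpl10, Mrpl18, Mrpl27, Mrpl30, Mrpl40, Mrpl42, Mrpl51, Mrpl58, Mrps12, Mrps21 and Mrps25. Both comparisons use the same microglia libraries. The share of all genes called lower in both is not given here, so the 17 and the 11 have no background beside them. Mrps25 carries the limit given above on reads shared with Nr2c2. In microglia against neurons, markers of neurons (10 of 10), oligodendrocytes (10 of 10), astrocytes (7 of 10) and oligodendrocyte precursors (3 of 6) were called lower. Markers of microglia (10 of 10), erythrocytes (5 of 5), endothelium (7 of 8), mural cells and fibroblasts (5 of 7 tested) and the dissociation response (12 of 15) were called higher. Their part in the result was not tested.

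Between the astrocyte and neuron fractions the direction over the 78 depended on the scaling. TMM scaling called 2, both lower in astrocytes, against 26.6% of all genes called and 11.5% called lower, with a median of -0.13 and 52 of 78 below 0. Total-count scaling called 10 as higher and 1 as lower, with a median of 0.24. Of all genes it called 33.3%, 26.4% as higher and 6.88% as lower. Relative to the median gene in the fit of all pools, the 78 stood at -0.39 under TMM and -0.40 under total-count scaling. Under both, 73 of 78 lay below it, although the batches did not share this position, as given below. In plain CPM 14 of the 78 were higher in astrocytes in each pool, against 15.2% of all genes, and 1 was lower in each, against 7.8%.

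Mrps26 was lower in astrocytes under either scaling. It had 16.6, 22.4 and 26.3 CPM in astrocytes (lowest, median, highest) against the neuron values above, which overlap, and was lower in 6 of 6 pools. The difference was -0.75 (SE 0.17, edgeR Benjamini-Hochberg adjusted p = 0.00425), and -0.38 under total-count scaling (adjusted p = 0.0286). Mrpl19, a large-subunit protein with a bacterial counterpart, had 11.4, 20.3 and 21.2 CPM in astrocytes and 17.2, 21.9 and 25.9 CPM in neurons. It was called under TMM at -0.60 (edgeR Benjamini-Hochberg adjusted p = 0.0212) and not under total-count scaling at -0.22 (adjusted p = 0.264). Mrpl19 shares 36% of its exon bases with Gcfc2 on the other strand, which differed by 0.33 and was not called. Mrps36, Mrpl12, Mrpl58, Mrps18a and Mrps30 were not called under TMM, with differences of -0.31 to 0.06. Under total-count scaling their differences were 0.03 to 0.43, all above 0 and none called, so the sign depended on the scaling for the 4 below 0 under TMM.

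Under TMM this comparison also moved with batch. In the batch 2 pools alone 34 of the 78 were called lower, with a median of -0.57, where 53.9% of all genes were called, 20.6% as lower, and the median of all genes was 0.55. In the batch 1 pools alone none passed, with a median of 0.19, where 5.88% of all genes were called and their median was 0.02. The median of the 78 thus lay below that of all genes in batch 2 and above it in batch 1. In plain CPM the median over the 78 was above 0 in both batches (0.26 in batch 2 and 0.25 in batch 1), and the summed share was higher in astrocytes in 6 of 6 pools, so the direction in batch 2 depends on the scaling. Without the batch 1 risperidone pool 24 were called, against 2 with it. The share of all genes called in that fit is not given here, so the rise cannot be read as particular to the 78. Summed oligodendrocyte markers were 9691 to 12609 CPM in astrocytes of batch 2 and 26642 to 36827 in those of batch 1, and 5361 to 6017 against 17454 to 28139 CPM in neurons. Their part in the result was not tested.

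**Figure D4:**
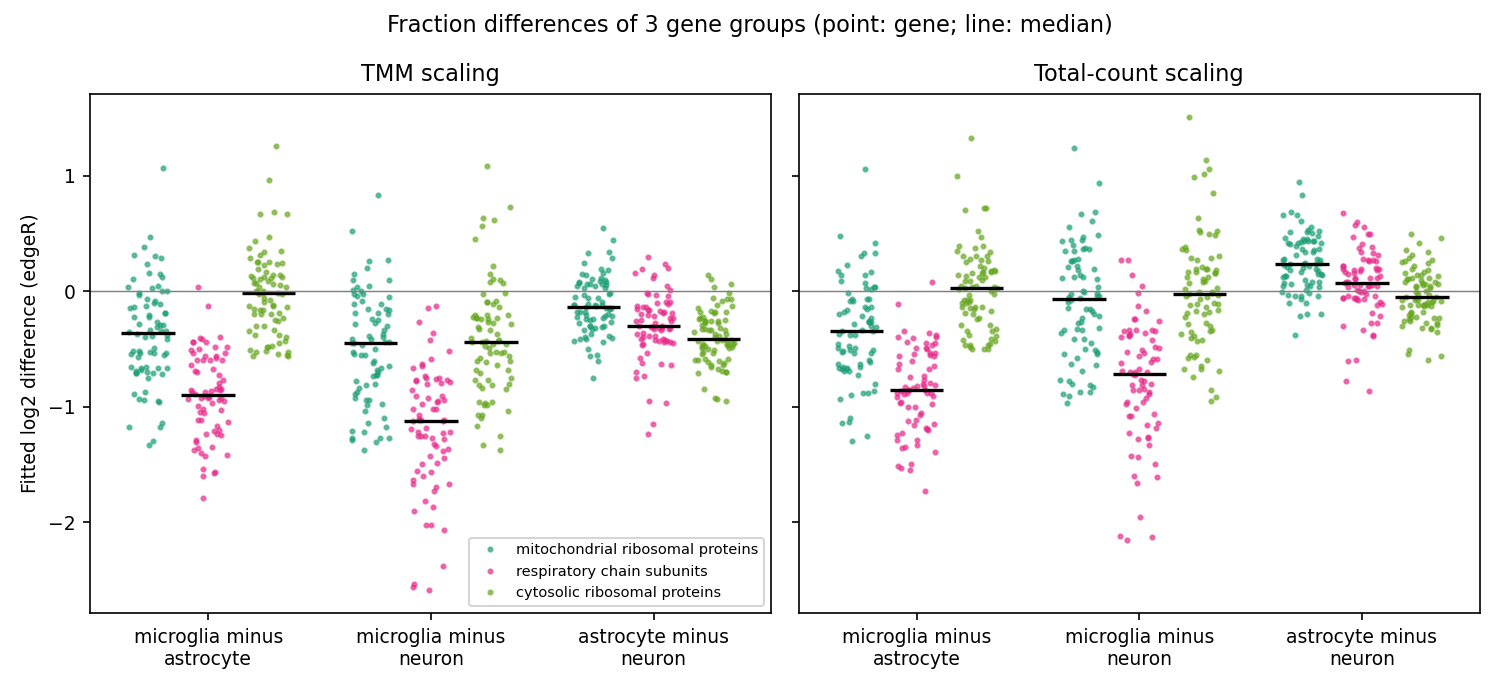
Fitted log2 differences between fractions for the 78 genes beside nuclear respiratory chain subunits and cytosolic ribosomal proteins (points are genes, lines are medians), under TMM (left) and total-count scaling (right). The median of the 78 lies at -0.36 and -0.34 between microglia and astrocytes under the 2 scalings, and at -0.13 and 0.24 between astrocytes and neurons.

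Other genes of mitochondrial translation did not all follow the ribosomal proteins. Of 5 further mitoribosomal proteins under other symbols, Chchd1 was lower in microglia than in astrocytes (-0.58), and Aurkaip1 (-0.82), Gadd45gip1 (-0.76) and Dap3 (-0.59) were lower than in neurons. Among 16 translation factors, Gfm2, which recycles ribosomes after translation, was higher in microglia against both astrocytes (2.29) and neurons (2.42). Mtif3, an initiation factor, was lower against both (-0.74 and -1.01), and in all 1 was higher and 2 lower against astrocytes. Of 20 mitochondrial aminoacyl-tRNA synthetases, which charge the transfer RNAs, 5 were lower against neurons, among them Fars2 (-0.89). Of 25 assembly factors 1 was higher and 3 lower against astrocytes, and 2 were higher and 6 lower against neurons. Lower against neurons were the GTPase Noa1 (-1.18) and the helicase Dhx30 (-0.77), which take part in building the ribosome's subunits. Of 14 genes for expression of mitochondrial DNA 1 was higher and 1 lower against astrocytes, and 5 were higher and 5 lower against neurons. The gene lower in both was Hsd17b10, a subunit of mitochondrial RNase P (-1.71 against astrocytes and -1.13 against neurons). Those counts are under TMM, and the counts against neurons depend on the scaling. Under total-count scaling 5 translation factors were higher and 3 lower, and 2 synthetases higher and 1 lower. Assembly factors gave 5 higher and 2 lower, genes of mitochondrial DNA expression 6 and 2, and the 5 further mitoribosomal proteins 1 lower. Of all genes that scaling called 38.4% as higher and 14.4% as lower, with a median of 0.72. Medians of these lists, in the same order, were 0.07, 0.12, 0.20, 0.53 and -0.21, all below that of all genes. Shares of all genes under TMM stand with the fraction comparisons above.

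Respiratory chain subunits, the partners that the mitochondrial ribosome's products join, were lower to a greater extent. Of 74 nuclear subunits 56 were lower in microglia than in astrocytes (median -0.90) and 68 were lower than in neurons (median -1.12), with 0 higher in both cases. Complex I subunit Ndufb9 differed by -1.79 against astrocytes and -2.54 against neurons. Relative to the median gene these subunits stood at -0.94 against astrocytes and -1.48 against neurons under TMM, beside -0.40 and -0.80 for the 78. Total-count scaling called 68 of the 74 lower against astrocytes and 59 lower against neurons. Of 79 cytosolic ribosomal proteins 5 were higher in microglia than in astrocytes and none lower (median -0.02). Against neurons 4 of them were higher and 26 lower under TMM (median -0.44), and 11 higher and 15 lower under total-count scaling (median -0.02).

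Neither drug changed any of the 78 genes past the threshold in any fraction. The edgeR quasi-likelihood test with Benjamini-Hochberg adjustment called 0 of 78 in all 9 comparisons, and 0% of all genes. DESeq2 called 0 of the 78 as well. The clozapine and risperidone comparisons within a fraction share the same 2 vehicle libraries, so their values are given side by side. The drugs were given at different doses, which the contrast between them carries. Genes in the drug and batch comparisons are named by smallest p, which favours groups that do not overlap. A lack of overlap there adds no support, and its share over all genes is not given here.

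In microglia, 4 of 78 genes had an unadjusted p under 0.05 for clozapine against vehicle (3.17% of all genes), 4 for risperidone against vehicle (4.28%) and 10 for clozapine against risperidone (7.38%). The fitted median was 0.21 for clozapine against vehicle with 59 of 78 above 0 (48.8% of all genes), -0.16 for risperidone against vehicle with 24 above 0 (51.2%), and 0.40 between the drugs with 63 above 0 (47.9%). Under total-count scaling these medians were 0.15 (55 above 0), 0.03 (43 above 0) and 0.15 (49 above 0), so the sign for risperidone depends on the scaling. Medians of all genes under that scaling were -0.08 (43% above 0), 0.21 (65.4%) and -0.29 (30.2%). Relative to the median gene, the 78 lay lower for risperidone against vehicle and higher for clozapine against either, under both scalings. The smallest p for clozapine belonged to Mrps14, a small-subunit protein with a bacterial counterpart, at 45.4 and 33.6 CPM with clozapine and 19.8 and 22.9 CPM with vehicle. The groups did not overlap, and the log2 difference was 0.94 (SE 0.31, edgeR unadjusted p = 0.0102, Benjamini-Hochberg adjusted p = 1). Mrpl49 had 11.6 and 10.4 CPM with clozapine against 4.00 and 6.37 CPM with vehicle (1.15), and Mrps33 had 26.9 and 18.2 CPM against 13.6 and 10.7 CPM (0.95). Each pair was again separate, which the choice by smallest p favours.

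For risperidone against vehicle in microglia, Mrpl38 had the smallest p at -0.85. Mrpl4, a large-subunit protein with a bacterial counterpart, had 10.0 and 11.4 CPM with risperidone and 15.3 and 19.0 CPM with vehicle (-0.86). Mrpl22, which lines the peptide tunnel, had 3.41 and 1.6 CPM against 5.71 and 5.02 CPM (-1.28). Between the drugs Mrps33 differed by 1.14, Mrpl4 by 1.06 and Mrpl22 by 1.48, with edgeR Benjamini-Hochberg adjusted p = 0.671 for each.

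In astrocytes, unadjusted p was under 0.05 for 2 genes with clozapine against vehicle (1.25% of all genes), 1 with risperidone against vehicle (0.645%) and 0 between the drugs (1.06%). The median was 0.32 with 67 of 78 above 0 for clozapine (46.8% of all genes), 0.24 with 57 above 0 for risperidone (49.4%), and 0.06 with 43 above 0 between the drugs (45.7%). Total-count scaling gave 0.14 (55 above 0), 0.07 (47 above 0) and 0.06 (45 above 0). Its medians over all genes were -0.24 (32.2% above 0), -0.10 (40%) and -0.14 (38.5%). Mrps24, a small-subunit protein with a bacterial counterpart, had 20.8 and 18.8 CPM with clozapine and 5.54 and 9.57 CPM with vehicle. That was the largest drug difference among the 78, at 1.61 (SE 0.45, edgeR unadjusted p = 0.00452, Benjamini-Hochberg adjusted p = 1), and its groups did not overlap. Mrps24 shares 15.4% of its exon bases with Urgcp on the same strand. Mrpl20 (0.92) and Mrpl18 (0.88) followed. With risperidone, Mrps28 (1.01), Mrps5 (0.82) and Mrpl20 (0.81) had the smallest p, and between the drugs Mrpl54 (0.86), Mrps24 (0.81) and Mrps23 (0.77).

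In neurons, unadjusted p was under 0.05 for 1 gene with clozapine against vehicle (2.81% of all genes), 1 with risperidone against vehicle (0.8%) and 7 between the drugs (3.26%). The median was 0.26 with 66 of 78 above 0 for clozapine (47.1% of all genes), -0.13 with 30 above 0 for risperidone (49.8%), and 0.37 with 69 above 0 between the drugs (46.4%). Total-count scaling gave 0.11 (50 above 0), -0.08 (31 above 0) and 0.17 (50 above 0). Its medians over all genes were -0.19 (32.9% above 0), 0.06 (55.8%) and -0.27 (29.5%). Mrps21 had 21.1 and 24.9 CPM with clozapine and 14.3 and 11.9 CPM with vehicle, without overlap (0.97, SE 0.33, edgeR unadjusted p = 0.0131, Benjamini-Hochberg adjusted p = 1). Mrpl58 (0.60) and Mrpl30 (0.55) followed. With risperidone, Mrps6 had 15.0 and 10.3 CPM against 23.0 and 18.2 CPM with vehicle (-0.76), and Mrpl47 (-0.65) and Mrpl18 (-0.71) followed. Between the drugs, Mrpl11 of the large-subunit stalk base had 11.6 and 12.2 CPM with clozapine and 6.59 and 5.79 CPM with risperidone (1.13, SE 0.39, edgeR unadjusted p = 0.013, Benjamini-Hochberg adjusted p = 1). Mrpl18 (1.05) and Mrpl54 (1.00) followed, with Mrpl54 at 12.7 and 13.4 CPM with clozapine and 6.90 and 7.67 CPM with risperidone.

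**Figure D5:**
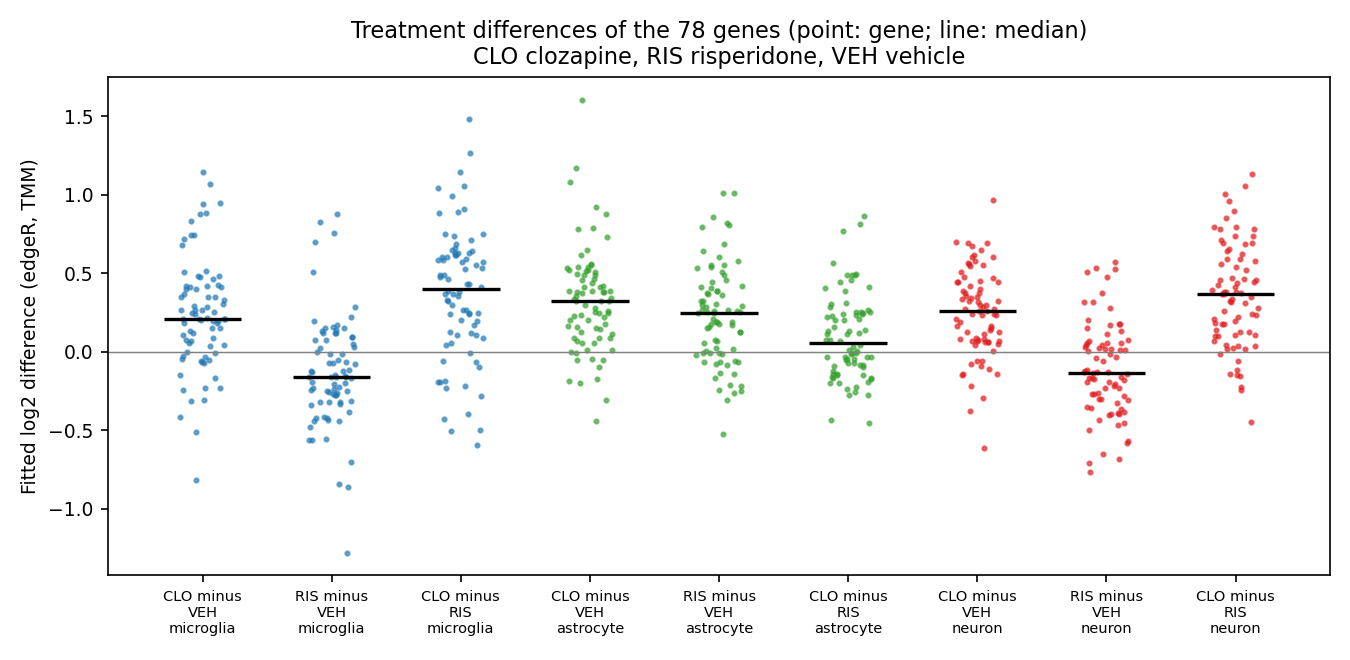
Fitted log2 differences (edgeR, TMM) of the 78 genes for each drug comparison in each fraction (points are genes, lines are medians). Medians run from -0.16 for risperidone against vehicle in microglia to 0.40 for clozapine against risperidone in microglia, and no gene passed the threshold.

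The summed share of the library gave small values of the same kind. Clozapine against vehicle differed by 0.20 and 0.10 (log2, batch 1 and batch 2) in microglia, 0.09 and 0.21 in astrocytes and 0.06 and 0.19 in neurons. Risperidone against vehicle differed by 0.12 and -0.05 in microglia, 0.11 and 0.09 in astrocytes and 0.04 and -0.11 in neurons. Clozapine was above vehicle in both batches of each fraction, whereas risperidone changed sign between batches in microglia and neurons. No test was run on these sums. The rise with clozapine was not particular to the 78. Its total-count medians in microglia, astrocytes and neurons were 0.15, 0.14 and 0.11 for the 78. They were 0.29, 0.30 and 0.15 for respiratory chain subunits and 0.18, 0.26 and 0.24 for cytosolic ribosomal proteins. Mitochondrial aminoacyl-tRNA synthetases went the other way, at -0.11, -0.20 and -0.16.

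A single test of whether drug differences varied between fractions called 0 of 78 genes (edgeR, Benjamini-Hochberg) and 0% of 37310 genes. Unadjusted p was under 0.05 for 0 of the 78, against 1.14% of all genes. The smallest p were 0.129 for Mrpl22, 0.133 for Mrpl4 and 0.19 for Mrpl54.

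Between batches, edgeR fits with treatment as a term called 3 of 78 genes in the astrocyte fraction, all lower in batch 2. This share, 3.85%, was near the background, where 4.91% of all genes were called and 3.22% were called lower. Mrpl24, a large-subunit protein near the tunnel exit, had 29.1, 29.3 and 36 CPM in batch 2 against 42.6, 46.2 and 54.3 CPM in batch 1 (clozapine, risperidone, vehicle). The batches did not overlap, and the difference was -0.997 (SE 0.23, edgeR Benjamini-Hochberg adjusted p = 0.0162). Mrpl24 shares 26.3% of its exon bases with Rrnad1 on the opposite strand, which differed by -0.68 and was not called. Mrpl52 (-0.88) and Mrps21 (-1.003) were the others called. The median over the 78 was -0.36 under TMM scaling and 0.05 under total-count scaling, which called none. Relative to the median gene it was -0.43 under both, beside -0.84 for respiratory chain subunits and -1.31 for cytosolic ribosomal proteins. The lower summed oligodendrocyte markers of batch 2 given above moved with this result. Genes of the dissociation response moved the other way, at 3093 to 3695 CPM in astrocytes of batch 2 against 1038 to 1584 CPM in those of batch 1, with 9 of 15 called higher. The part of either in the result was not tested.

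In microglia 0 of 78 were called between batches (4.8% of all genes called), and 1 had an unadjusted p under 0.05, against 16.1% of all genes. That gene was Mrpl17, at 34.9, 49.7 and 35.6 CPM in batch 2 and 56.6, 72.5 and 61.2 CPM in batch 1 (-0.67, SE 0.20, edgeR Benjamini-Hochberg adjusted p = 0.054). The batches did not overlap, and DESeq2 called 1 of the 78. Mrps18c (-0.74) and Mrps6 (-0.44) were next. Neuron markers (9 of 10) were called higher, and erythrocyte (5 of 5), astrocyte (7 of 10) and oligodendrocyte markers (5 of 10) lower, in microglia of batch 2, and their part was not tested. In neurons 0 were called by edgeR and 1 by DESeq2 (0.178% of all genes called by edgeR), with unadjusted p under 0.05 for 12 of 78, against 25% of all genes. Mrpl12 had 62.7, 65.8 and 75.9 CPM in batch 2 and 50.7, 39.3 and 41.0 CPM in batch 1 (0.80, edgeR Benjamini-Hochberg adjusted p = 0.0809), and Mrpl9 (0.69) and Mrpl16 (0.84) followed.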

How the data were processed

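The deposited values were raw counts per gene, 1 per library and gene; per the file headers, the authors counted read pairs with featureCounts v2.0.8 on GRCm39, summing exons to genes, with no strand option and with a read counted for each gene it overlapped. Reads were checked with FastQC, per the submitters' processing notes; and the name of the aligner was not given in the sources used here. Overlapping or antisense genes therefore have uncertain values: 33 of the 78 genes share exon bases with another gene and 17 share at least 10%. Members were found by symbol in the combined table, whose counts equal those of the single tables for all 78, and tests ran on the single tables.

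Tests used R 4.3.3 with edgeR 4.0.16 (quasi-likelihood F test, TMM, filterByExpr, Benjamini-Hochberg over all genes tested) and limma 3.58.1; promoters and plots used Python 3.11.15 and matplotlib 3.10.9. Fractions were compared in all 18 libraries with the 6 pools as a block (28667 genes, 10 residual degrees of freedom), drugs within a fraction without a block (32846 genes in microglia, 31022 in astrocytes, 25510 in neurons; 3 degrees), and batches within a fraction with treatment as a term (2 degrees). The SE of a log2 difference was obtained as its size over the square root of its F. The batch number pairs the pools, per the labels: deviations of same-numbered libraries from their group means correlated at 0.162 to 0.559 in all 9 pairs. Replicates differed by more than sampling noise. Alternatives were the replicate block, DESeq2 1.42.0, RLE scaling, no low-count filter, an adjusted p under 0.10, pools or libraries left out, all 18 libraries in 1 fit, and genes that share exons left out; total-count scaling was chosen after values were seen.

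Up to 10 called genes per direction and fraction comparison by smallest p, 3 per drug or batch comparison and interaction, the 3 highest and 3 lowest levels, and Mrps36, Mrps18a, Mrps30, Mrpl12 and Mrpl58 are named; Tcp1, Gm16279, Nr2c2 and other exon-sharing neighbours, Mrps18c beside Mrps18b, and further called genes were named after values were seen. The members and all lists were chosen with earlier results of these data known.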

Additional observations from a re-analysis of the deposited data

Results flagged for a closer look

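In 129 sets of 6 libraries of 1 fraction (41 genes, the summed level and the ratio of the subunit sums), 10 held a library far from the other 5; chance does this in about 1 of 20 such sets. The summed level of the 78 genes was 1745 CPM in the batch 2 clozapine neuron library, against 1417 to 1531 CPM in the other neuron libraries. In microglia, Mrps12 was at 19.8 CPM in the batch 2 clozapine library (9.84 to 11.9 in the others), Mrps18c at 2.83 CPM in the same library (5.75 to 7.95), and Mrps26 at 13.6 CPM in the batch 1 vehicle library (18.5 to 20.4). In astrocytes, the batch 1 risperidone library was low for Mrpl19 at 11.4 CPM (17.8 to 21.2) and for Mrpl54 at 5.63 CPM (13.3 to 18.1). In neurons, the batch 2 risperidone library was low for Mrpl4 at 10.0 CPM (15.6 to 18.7) and for Mrps36 at 5.38 CPM (12.5 to 17.9), the batch 1 risperidone library was low for Mrps28 at 3.68 CPM (8.26 to 10.3), and the batch 2 vehicle library was high for Mrpl49 at 16.4 CPM (10.0 to 11.0).

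Outside the 78 genes, Mrpl23-ps1 reached 15 counts in a library, with a median of 4, and exceeded 3 counts, the limit that a count of 0 allows, in 12 of 18.

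For 10 of the 78 genes, batch 2 minus batch 1 was above 0 in every treatment of one fraction and below 0 in every treatment of another (mean log2 CPM difference, with 2 counts added to each library). Between microglia and neurons, Mrpl16 had -0.28 in microglia and 0.68 in neurons, Mrpl22 had -0.45 and 0.20, and Mrpl57 had -0.50 and 0.25. Between microglia and astrocytes, Mrpl28 had -0.46 in microglia and 0.41 in astrocytes, Mrpl39 had -0.36 and 0.36, Mrpl46 had -0.46 and 0.37, and Mrps6 had -0.44 and 0.60. Mrps18b had -0.26 in microglia, 1.16 in astrocytes and 0.38 in neurons. Between astrocytes and neurons, Mrpl27 had -0.39 in astrocytes and 0.52 in neurons, and Mrpl35 had 0.46 and -0.076. The share of all genes with this pattern was not counted, so the 10 cannot be read as particular to the 78. The difference between fractions was not tested.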

How the results depend on the processing

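No called gene changed direction under an alternative: of the single-gene values recomputed 850 kept their side of the threshold, 93 lost a call and 13 gained 1. Calls in microglia against astrocytes (19) numbered 1 with vehicle pools only, 5 with clozapine pools only, 2 with risperidone pools only and 8 with batch 2 pools only; against neurons (37), 6 with vehicle, 2 with risperidone and 17 with batch 1 pools only, and 24 under total-count scaling. These subsets hold fewer pools, and the share of all genes called in them is not given here. For astrocytes against neurons (2), counts were 4 with DESeq2, 11 under total-count scaling, 0 with vehicle, 1 with clozapine, 0 with risperidone, 34 with batch 2 and 0 with batch 1 pools only, 7 at an adjusted p under 0.10 and 1 without genes that share exons. Leaving out each pool gave 13 to 21, 27 to 44 and 1 to 24 calls in the 3 comparisons; the 24 came without the batch 1 risperidone pool, and 1 came without the batch 2 clozapine, risperidone or vehicle pool. Batch counts in microglia (0) were 1 with DESeq2, total-count scaling or an adjusted p under 0.10. In astrocytes (3) they were 5 without a low-count filter, 0 under total-count scaling and 8 at an adjusted p under 0.10, and 0 to 19 with a library left out (19 without either clozapine library, 1 without either vehicle library, 0 without either risperidone library). In neurons (0) they were 1 with DESeq2, 2 without a filter, 1 at an adjusted p under 0.10, and 0 to 6 with a library left out (4 without the batch 1 and 6 without the batch 2 clozapine library). The cause of these changes was not tested, and the share of all genes called with a pool or library left out is not given. Drug and interaction counts were 0 under every alternative run. A library left out of a drug comparison leaves its group with 1 library, assumed to vary like the others.

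Without the replicate block the fraction counts were 21, 45 and 3, against 19, 37 and 2 with it. With the replicate block on the drug comparisons and the interaction the count was 0, as without it. At 2 pools a group and 4.71 M counts in the shallowest library, a drug difference that missed the threshold was not detectable at this depth, which does not show that it was absent.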
